A study of Mus musculus with 12 samples.

Results

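The 10 genes examined here, Col1a1, Col1a2, Col3a1, Dcn, Ogn, Aldh1a2, Slc13a4, Slc22a6, Slc6a12, and Slc6a13, are genes of meningeal and perivascular fibroblasts. They were read from 12 microarrays of mouse models of Alzheimer's disease (AD), on which 19648 genes passed the filter on dim probes. They were chosen by a measured value, since several of them, led by Slc6a12, Slc13a4, and Slc22a6, were far higher on the array of 5 μM amyloid-β (Aβ) than on the other arrays of the same strain. The values in ICR mice are therefore a description and no evidence. The values in cortex and in transgenic mice were not that measured value, but the choice was made with earlier results of these data known.

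Fibroblasts are a minor cell type of the brain. They form the layers of the meninges that wrap its surface and sheath the larger vessels that enter it, and they secrete the collagens and proteoglycans that give these layers strength. Those of the inner meninges also carry transporters that move solutes between the cerebrospinal fluid and the brain, and they make retinoic acid, a signal that guides the growth of the underlying cortex.

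Each model had 1 array, hybridized with a pool of RNA from 3 animals. The spread between animals is therefore unknown, and no test was made. The first set comprised the cortex of C57BL/6 mice aged 1.5, 4, 17, and 22 months, which the labels call prefrontal cortex. The second comprised the hippocampus of C57BL/6 mice that overexpressed mutated human NCSTN (10 months of age) or wild-type human MAPT (12 months), and of 5×FAD mice (6 months), a transgenic line that forms Aβ plaques. The promoters of these transgenes are not given in the sources used here, and model and age cannot be told apart. The third comprised the hippocampus of ICR mice, an outbred strain, aged 7 weeks. Aβ was given into the cerebral ventricle at 5 or at 10 μM, and streptozotocin into the same place at 2.5 or at 3 mg/kg, 14 days before dissection. Scopolamine was given into the peritoneum at 1 mg/kg, 30 minutes before it. Aβ aggregates form the plaques of AD, streptozotocin disturbs insulin signalling, and scopolamine blocks muscarinic acetylcholine receptors. Per the methods, Aβ and streptozotocin went through holes drilled in the skull, which the scopolamine route did not need. Arrays of untreated or sham-treated controls were not analysed here. Ratios are therefore relative to the average of the remaining arrays of a set, and for any gene they sum to 0 over the set by construction.

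Before the results, the labels were checked. The summed signal of 7 genes of cortical layers was 11857 to 14715 on the cortex arrays and 2999 to 6724 on the hippocampus arrays. That of 6 genes of hippocampal fields was 901 to 1505 in cortex and 4789 to 7165 in hippocampus. Among the hippocampus arrays, both sums were highest at 2.5 mg/kg of streptozotocin. On that array 6 of the 7 cortical genes had their highest value in ICR mice (23.5% of all genes), with a median log2 ratio of 0.70. A difference in the tissue dissected was not tested. All animals were stated to be males, but the 3 transgenic arrays went against this. Xist, the RNA of the inactive X chromosome, had a log2 signal of 9.20 to 9.58 on those arrays and of 1.92 to 2.70 on the other 9, whereas the Y-linked genes Ddx3y and Eif2s3y were not well above background on the transgenic arrays and were on the other 9. The results of that set therefore rest on animals of unsettled sex.

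The genes lie on 7 chromosomes of the mouse genome (GRCm38.p6), and 4 of them are on chromosome 6. Slc6a13 (chr6:121300288-121337721) and Slc6a12 (chr6:121342574-121365773) are neighbours, 4852 bases apart, and encode related carriers of γ-aminobutyric acid (GABA). RefSeq promoter windows of the same build, from 250 bases before to 50 after a start, matched 8 of the 10 genes, with 14 windows in all. The 120 bases before the first start in the table are shown for both neighbours, for a collagen, for Aldh1a2, and for the remaining transporters, because these genes were high and low on the same ICR arrays, and their promoters can be compared for shared motifs. They are written 5′ to 3′ on the strand of the gene given in parentheses, with matches to any of 5 searched motifs, on either strand, in capitals.
Slc6a13, chr6:121300168-121300287 (+): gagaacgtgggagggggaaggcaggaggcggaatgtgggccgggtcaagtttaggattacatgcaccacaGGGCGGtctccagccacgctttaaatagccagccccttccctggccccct
Slc6a12, chr6:121342454-121342573 (+): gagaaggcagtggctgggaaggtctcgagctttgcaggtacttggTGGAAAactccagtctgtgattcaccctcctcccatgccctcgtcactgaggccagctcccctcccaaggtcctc
Slc13a4, chr6:35308127-35308246 (-): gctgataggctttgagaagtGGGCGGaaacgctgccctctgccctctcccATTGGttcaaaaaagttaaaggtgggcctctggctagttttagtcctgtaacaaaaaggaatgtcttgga
Slc22a6, chr19:8617876-8617995 (+): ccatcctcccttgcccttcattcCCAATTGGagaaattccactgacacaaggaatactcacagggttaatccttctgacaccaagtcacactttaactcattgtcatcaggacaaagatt
Col1a2, chr6:4505498-4505617 (+): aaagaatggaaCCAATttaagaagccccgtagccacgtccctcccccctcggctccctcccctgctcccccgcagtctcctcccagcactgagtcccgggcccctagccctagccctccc
Aldh1a2, chr9:71215669-71215788 (+): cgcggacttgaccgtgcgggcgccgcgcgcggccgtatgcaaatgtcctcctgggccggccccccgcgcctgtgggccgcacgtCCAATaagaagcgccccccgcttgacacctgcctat

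The motifs were searched on both strands over the whole window of 300 bases. The CCAAT box (CCAAT) was found for 5 of the 8 genes, Aldh1a2, Col1a2, Slc13a4, Slc22a6, and Slc6a13, and in 37.41% of the 32851 windows of all genes. TGGAAA, the core of the element that tonicity-responsive factors bind, was found for 5 of the 8, Col3a1, Ogn, Slc13a4, Slc6a12, and Slc6a13, and in 21.43% of all windows. The GC box (GGGCGG) was found for 3 genes, Col1a2, Slc13a4, and Slc6a13, against 35.66% of all windows. AGGTCA, a site of many nuclear receptors, was found for Slc6a12 and Slc6a13 and in 16.26% of all windows. The TATA box (TATAAA) was found for Col3a1 and Ogn and in 13.62%. No motif was shared by all 8 genes, and genes with several windows had more chances of a match. A match is a description of the letters and not a binding site.

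Every gene was represented by 1 probe on 1 spot, and all 10 probes were well above background on all 12 arrays. The lowest ratio of foreground to local background was 4.00, for Slc6a12, and it reached 86.2 for Dcn. The error that the scanner software gives for a spot was 10 to 11.97% of the signal. This gives an error of 0.15 to 0.18 on the log2 scale for a ratio to the other arrays and of 0.19 to 0.21 for the difference of a pair of arrays. It covers the spot and not the animals. The values below are log2 of the normalized signal, or differences of these, and a probe was compared with itself across arrays but never with another probe.

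The 10 genes varied more than most, and in ICR mice a wide range follows from how they were chosen. In ICR hippocampus, the median distance between the lowest and the highest array was 3.40 on the log2 scale, against 0.41 over all genes. In cortex it was 1.14 against 0.39, and in transgenic hippocampus 0.99 against 0.45. The highest array exceeded the lowest by at least 2-fold for all 10 genes in ICR mice (20.9% of all genes), for 8 in cortex (14.2%), and for 5 in transgenic mice (16.7%). In a sample of whole tissue, fewer fibroblasts and less of these RNAs per fibroblast cannot be told apart.

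**Figure D1:**
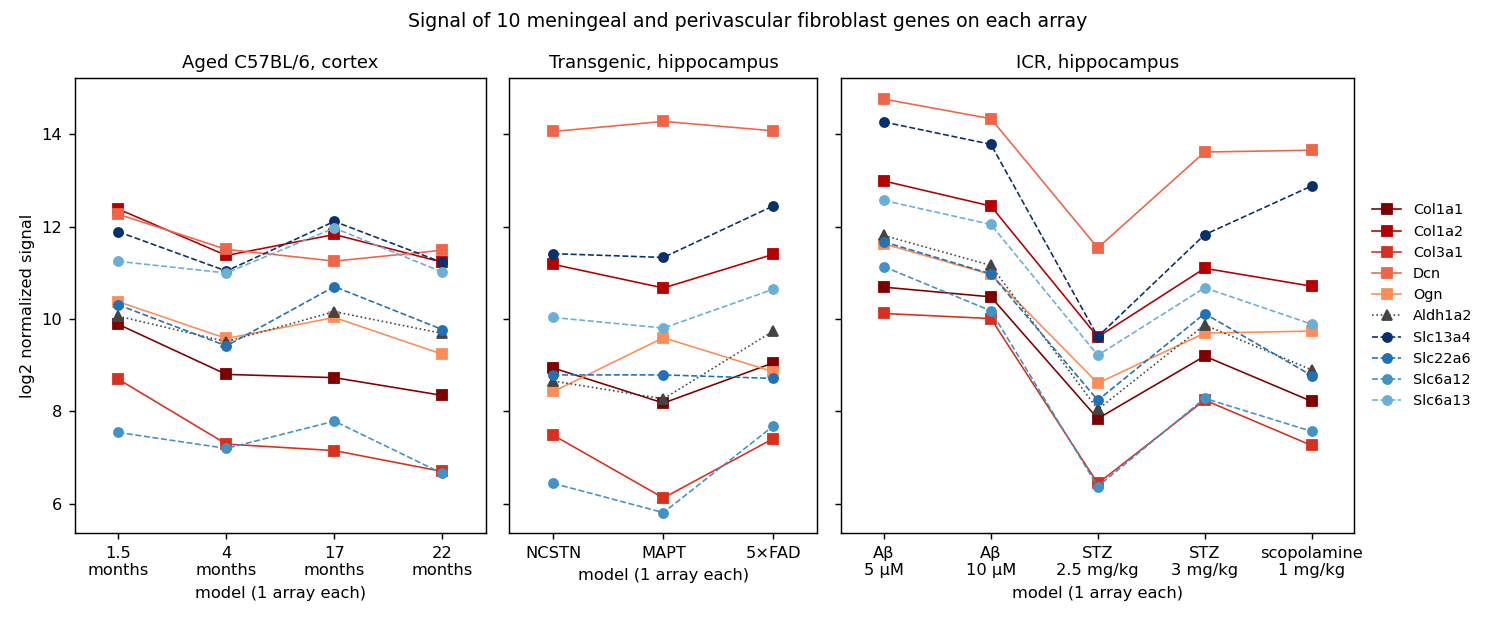
Log2 normalized signal (y axis) of the 10 genes on each of the 12 arrays (x axis), in 3 panels for cortex, transgenic hippocampus, and ICR hippocampus. Squares with solid lines are matrix genes, circles with dashed lines are transporters, and triangles are Aldh1a2, with STZ standing for streptozotocin. Lines join the values of 1 probe and are not a time course. Heights of different genes cannot be compared. All 10 genes are lowest among ICR arrays at 2.5 mg/kg of streptozotocin and highest at 5 μM Aβ.

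In ICR hippocampus, all 10 genes were highest on the array of 5 μM Aβ, second on that of 10 μM Aβ, and lowest on that of streptozotocin at 2.5 mg/kg. Across all genes, 16.8% were highest at 5 μM, 22.1% were lowest at 2.5 mg/kg, and 5.97% had 5 μM above 10 μM and both above every other array. Against the other arrays of the set, all 10 genes were at least 2-fold higher at 5 μM (3.82% of all genes), 9 at 10 μM (3.78%), and none at either dose of streptozotocin. At 2.5 mg/kg, all 10 were at least 2-fold lower (4.82% of all genes). On the scopolamine array, 6 were at least 2-fold lower (2.15%), whereas at 3 mg/kg none reached 2-fold in either direction (2.21% higher and 2.76% lower). Because the choice of genes used these arrays, nothing is read from these counts. The count at 10 μM was 4 with the array of 2.5 mg/kg left out of the reference.

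Among the matrix genes, Col1a1 and Col1a2 encode the chains of type I collagen, the main fibre of the meninges. Col1a1 measured 10.69 at 5 μM, 10.48 at 10 μM, 7.84 at 2.5 mg/kg of streptozotocin, 9.20 at 3 mg/kg, and 8.22 with scopolamine. Col1a2 measured 12.99, 12.45, 9.61, 11.10, and 10.71 on the same arrays in the same order. For both chains the Aβ arrays stood above the other 3, and 2.5 mg/kg stood below them.

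Col3a1 encodes type III collagen, a finer fibre found beside type I. It measured 10.12 and 10.01 on the Aβ arrays, 6.44 and 8.25 on the streptozotocin arrays, and 7.26 with scopolamine. The Aβ doses differed by 0.11, which is within the error of the spots, and Col3a1 was the only one of the 10 genes for which this was so. Its distance from lowest to highest array was 12.8-fold.

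Dcn and Ogn encode decorin and osteoglycin, small leucine-rich proteoglycans that bind collagen fibres. Dcn measured 14.76 and 14.34 with Aβ, 11.54 and 13.62 with streptozotocin, and 13.66 with scopolamine. Ogn measured 11.63 and 10.96, 8.61 and 9.69, and 9.74 in the same order. For these genes the arrays of 3 mg/kg and of scopolamine were within the error of each other. Dcn at 10 μM, 0.94 above the other arrays, was the only value of the 10 genes on the Aβ arrays that fell short of 2-fold.

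Aldh1a2 encodes the retinaldehyde dehydrogenase that makes retinoic acid in the meninges. Its signal was 11.81 and 11.16 with Aβ, 8.04 and 9.87 with streptozotocin, and 8.90 with scopolamine. The distance from lowest to highest array was 13.6-fold, and all 5 arrays differed from each other by more than the error of the spots.

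The largest distances were those of transporters. Slc6a12 carries betaine and GABA, and it measured 11.13 at 5 μM, 10.18 at 10 μM, 6.37 at 2.5 mg/kg, 8.28 at 3 mg/kg, and 7.57 with scopolamine, a distance of 27.1-fold. Slc13a4, a carrier of sulfate, measured 14.27, 13.78, 9.62, 11.83, and 12.88, a distance of 25.1-fold. Slc13a4 was the only one of the 10 genes that was higher with scopolamine than at 3 mg/kg of streptozotocin beyond the error, by 1.05 on the log2 scale. It was also the only transporter above the mean of the other arrays with scopolamine, with a ratio of 0.51, against -1.24 to -1.48 for the remaining transporters. This ratio was -0.41 with the array of 2.5 mg/kg left out of the reference, so its direction rests on that array.

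Slc6a13, the neighbour of Slc6a12, measured 12.57 and 12.05 with Aβ, 9.21 and 10.68 with streptozotocin, and 9.89 with scopolamine. Slc22a6, the carrier of organic anions first described in the kidney, measured 11.67 and 10.98, 8.24 and 10.12, and 8.78. Their distances were 10.2-fold and 10.8-fold, and the order of the 5 arrays was the same for both, as it was for Slc6a12.

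The doses of the same agent can be set side by side. All 10 genes were higher at 5 than at 10 μM Aβ (45.7% of all genes), by a median of 0.53 on the log2 scale and by 0.11 (Col3a1) to 0.95 (Slc6a12). None reached 2-fold (3.16%) and 4 reached 1.5-fold (6.84%). At 3 mg/kg of streptozotocin, all 10 were at least 2-fold higher than at 2.5 mg/kg (4.13% of all genes), by a median of 1.82. The smallest of these differences was 1.08 (Ogn) and the largest was 2.21 (Slc13a4). With 1 array for each dose, a difference between doses and any other difference between the pools cannot be told apart.

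The Aβ arrays also stood above ICR arrays other than the lowest. All 10 genes were at least 2-fold higher at 5 μM than at 3 mg/kg of streptozotocin (5.45% of all genes) and than with scopolamine (4.14%), with median differences of 1.89 and 2.57. For 10 μM the counts were 8 against 3 mg/kg (4.97%) and 8 against scopolamine (3.90%). Scopolamine was at least 2-fold above 2.5 mg/kg for 5 genes (5.43%).

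**Figure D2:**
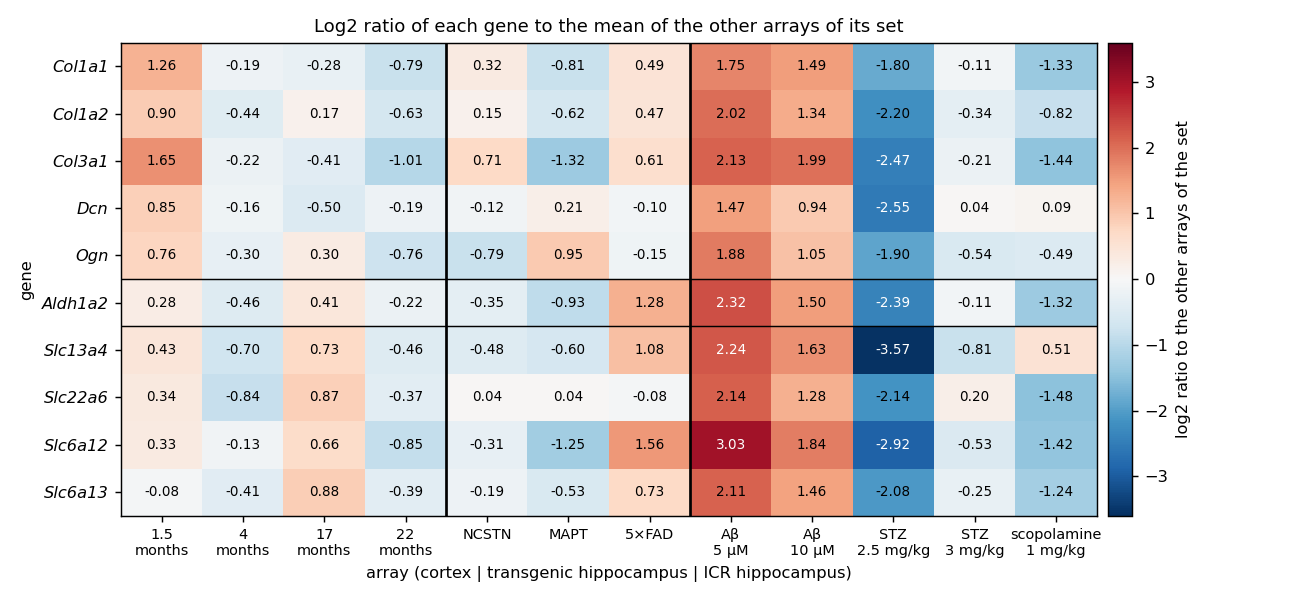
Log2 ratio (colour and printed value) of each of the 10 genes (rows) to the average of the set's remaining arrays, for the 12 arrays (columns). Thick vertical lines part the 3 sets and thin horizontal lines part matrix genes, Aldh1a2, and transporters. At 5 μM Aβ the ratios lie between 1.47 (Dcn) and 3.03 (Slc6a12), and at 2.5 mg/kg of streptozotocin between -1.80 (Col1a1) and -3.57 (Slc13a4).

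In the cortex of aged mice, the matrix genes and the transporters did not have the same order of ages. All 5 matrix genes were highest at 1.5 months (23.2% of all genes), whereas all 4 transporters and Aldh1a2 were highest at 17 months (30.0%). From 1.5 to 22 months all 10 genes were lower (44.0% of all genes), and the 4 genes that were lower by at least 2-fold were all matrix genes (2.76%). In all, 5 genes were lowest at 22 months (17.1% of all genes), Slc6a12 and every matrix gene except Dcn. The ages come from 1 array each, so the values give no rate of change with age.

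Col3a1 measured 8.70 at 1.5 months, 7.29 at 4 months, 7.15 at 17 months, and 6.70 at 22 months. Col1a1 measured 9.88, 8.80, 8.73, and 8.35. These were the only genes of the 10 that were lower at each later age, as were 3.03% of all genes, and the step from 4 to 17 months was within the error for both. They were also the only ones at least 2-fold above the other ages at 1.5 months (1.95% of all genes), with ratios of 1.65 and 1.26.

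Col1a2 measured 12.38 at 1.5 months, then 11.38, 11.83, and 11.23. Ogn measured 10.38, 9.58, 10.03, and 9.24. Both were higher at 17 months than at 4 and 22 months. Dcn measured 12.27, 11.51, 11.25, and 11.49, and it was the only one of the 10 genes lower at 17 than at 22 months.

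Among the transporters, Slc6a13 measured 11.25, 11.00, 11.97, and 11.01 at 1.5, 4, 17, and 22 months. Slc22a6 measured 10.31, 9.42, 10.70, and 9.77, and Slc13a4 measured 11.89, 11.04, 12.11, and 11.22. In these 3 carriers the 17-month array stood above all the others, and 4 months was lowest for each, within the error of 22 months for Slc13a4 and Slc6a13. Slc6a12 measured 7.54, 7.20, 7.79, and 6.66, also highest at 17 months but lowest at 22. Aldh1a2 measured 10.06, 9.51, 10.16, and 9.69, and its values at 1.5 and 17 months were within the error of each other.

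The size of this split can be given by pairs of ages. From 1.5 to 17 months, all 5 matrix genes were lower (49.2% of all genes), by a median of 1.02 on the log2 scale, whereas all 4 transporters and Aldh1a2 were higher (50.8% of all genes), the transporters by a median of 0.32. At 17 months 7 genes were higher than at 4 months (51.2% of all genes), among them all 4 transporters. From 17 to 22 months, 9 of the 10 genes were lower (47.5% of all genes), and the transporters were lower by 0.89 to 1.13.

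In the transgenic hippocampus, 6 of the 10 genes were highest on the 5×FAD array (37.1% of all genes) and 7 were lowest on the MAPT array (29.0%). Aldh1a2, Slc13a4, and Slc6a12 were at least 2-fold higher on the 5×FAD array than on the other arrays of the set (6.05% of all genes), with ratios of 1.28, 1.08, and 1.56. Col3a1 and Slc6a12 were at least 2-fold lower on the MAPT array (2.90%), with ratios of -1.32 and -1.25. Between single arrays, 5×FAD was at least 2-fold above MAPT for 4 genes (6.63% of all genes), Col3a1 and the same 3, and at least 2-fold above NCSTN for 3 (6.31%).

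Slc6a12 measured 6.44 in NCSTN, 5.81 in MAPT, and 7.68 in 5×FAD mice. Aldh1a2 measured 8.66, 8.27, and 9.74, and Slc13a4 measured 11.42, 11.33, and 12.45. In these 3 genes the 5×FAD array was above both others. Slc6a13 had the same order, with 10.03, 9.80, and 10.64.

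The collagens separated the MAPT array from the other 2. Col1a1 measured 8.94 in NCSTN, 8.18 in MAPT, and 9.05 in 5×FAD mice, and Col3a1 measured 7.48, 6.13, and 7.41. For both genes NCSTN and 5×FAD were within the error of each other. Col1a2 measured 11.18, 10.67, and 11.40, with all 3 arrays apart by more than the error.

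The proteoglycans did not follow the collagens. Ogn measured 8.43, 9.59, and 8.86 and was highest on the MAPT array. Dcn measured 14.06, 14.28, and 14.07, a distance of 1.16-fold. Slc22a6, with 8.79, 8.79, and 8.71, stayed within the error over the whole set, although it spanned 10.8-fold in ICR mice.

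The medians of the 5 matrix genes and of the 4 transporters can be set side by side on each array. On the ICR arrays, which were used to choose the genes, the matrix and transporter medians were 1.88 and 2.19 at 5 μM Aβ, 1.34 and 1.55 at 10 μM, -2.20 and -2.53 at 2.5 mg/kg of streptozotocin, -0.21 and -0.39 at 3 mg/kg, and -0.82 and -1.33 with scopolamine. With the array of 5 μM Aβ left out of the reference, both medians at 3 mg/kg turned positive, to 0.34 and 0.27. In cortex they were 0.90 and 0.34 at 1.5 months, -0.22 and -0.56 at 4 months, -0.28 and 0.80 at 17 months, and -0.76 and -0.42 at 22 months, with opposite signs at 17 months. With the 1.5-month array left out of the reference, the matrix median turned positive both at 17 months, to 0.16, and at 4 months, to 0.14, so the opposite signs at 17 months rest on that array. The transporter median at 17 months stayed between 0.68 and 0.97. In transgenic mice they were 0.15 and -0.25 for NCSTN, -0.62 and -0.57 for MAPT, and 0.47 and 0.90 for 5×FAD, with opposite signs for NCSTN. Neither sign for NCSTN was stable, since the matrix median was -0.11 without the MAPT array in the reference and the transporter median was 0.16 without the 5×FAD array. The median over all genes lay between -0.0548 (5×FAD) and 0.0307 (NCSTN). The widest gap between the medians was 1.08, at 17 months in cortex, and the gaps in ICR mice were 0.18 to 0.51 in size.

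**Figure D3:**
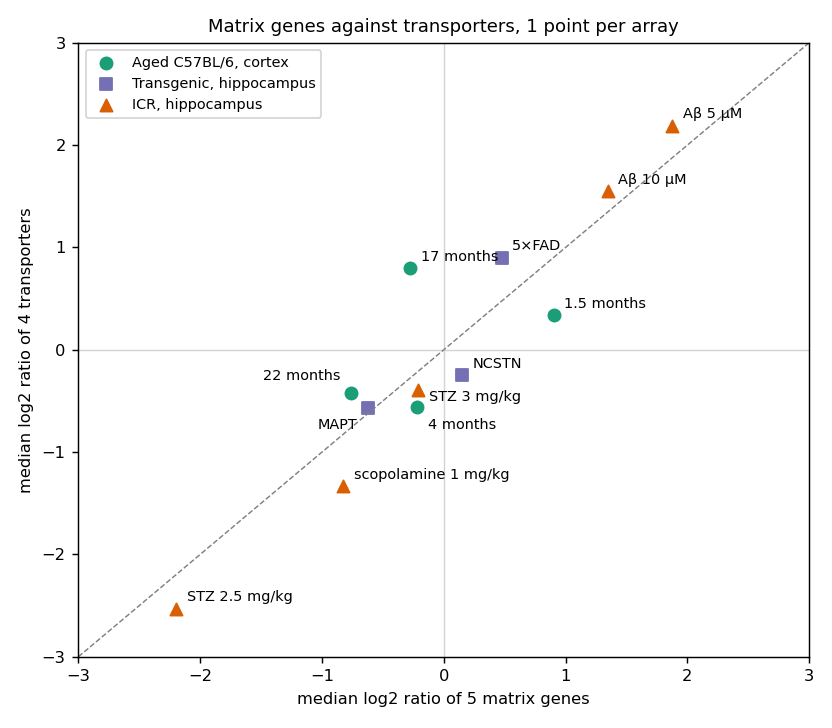
Median log2 ratio of the 4 transporters (y axis) against that of the 5 matrix genes (x axis), each relative to the average of the set's remaining arrays, with 1 point for each of the 12 arrays and the line of equality dashed. Arrays above the line have transporters higher than matrix genes. The 17-month cortex (-0.28, 0.80) lies farthest from the line.

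As a description over 12 arrays that share their sets, each of the 10 genes, centred within its set, had a Pearson's r of 0.86 (Dcn) to 0.99 (Col1a2) with the mean of the other 9. Over the 7 arrays of cortex and transgenic mice, r was 0.96 for Col1a2 and 0.28 for Ogn, with Dcn at 0.30. The r over 7 arrays does not describe each set by itself. In cortex, Ogn had ratios of 0.76, -0.30, 0.30, and -0.76 at 1.5, 4, 17, and 22 months. The medians of the 10 genes there had the same signs and order, with 0.59, -0.36, 0.35, and -0.54. Ogn differed from them on the MAPT array, with 0.95 against a median of -0.61. Dcn differed at 17 months, with -0.50 against 0.35, and on the MAPT array, with 0.21.

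Other genes of fibroblasts were also highest at 5 μM and lowest at 2.5 mg/kg in their median. Of 37 listed genes 36 were measured, and their median ratio was 1.47 at 5 μM, 0.97 at 10 μM, -1.42 at 2.5 mg/kg, -0.17 at 3 mg/kg, and -0.79 with scopolamine. At 5 μM, 24 of the 36 were at least 2-fold higher (3.82% of all genes). At 2.5 mg/kg, 21 were at least 2-fold lower (4.82% of all genes), and 28 of the 36 were well above background. The list was drawn up with earlier results of these data known, so nothing is read from these counts. Lum, which encodes the proteoglycan lumican, had a ratio of 1.13 at 5 μM and -1.37 at 2.5 mg/kg. Itih2, a hyaluronan-binding protein, had ratios of 2.61 and -2.65. In cortex the medians of the 36 genes were 0.38, -0.30, 0.21, and -0.45, and in transgenic mice -0.08, -0.52, and 0.46.

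In the pathways that serve these genes in many cells, the medians stayed nearer to 0, although single members did not. For 20 genes of collagen folding, hydroxylation, cleavage, and crosslinking, the median ratio lay between -0.29 and 0.29 on all 12 arrays, 2 were at least 2-fold higher at 5 μM, and 5 were at least 2-fold lower at 2.5 mg/kg. Serpinh1, the collagen chaperone, had a ratio of 0.59 at 5 μM and -0.66 at 2.5 mg/kg. For 15 genes of the retinoic acid pathway the median lay between -0.41 and 0.28, 2 were at least 2-fold higher at 5 μM, and 2 were at least 2-fold lower at 2.5 mg/kg. Those higher at 5 μM were Crabp2, which binds retinoic acid in the cytoplasm, with 1.89, and Stra6, a receptor for retinol uptake, with 1.26. Crabp2 was also on the list of fibroblast genes. For 15 carriers of the same families or barriers the median lay between -0.31 and 0.33, 4 were at least 2-fold higher at 5 μM, and 4 were at least 2-fold lower at 2.5 mg/kg, against the 3.82% and 4.82% of all genes given above. Slc22a2, a carrier of organic cations that was also on the list of fibroblast genes, had the largest ratio of these carriers at 5 μM. Its log2 signal was 7.53 and 7.74 with Aβ and 6.32 at 3 mg/kg, it was lower still with scopolamine, and it was not well above background at 2.5 mg/kg. Slc13a3, a carrier of dicarboxylates, had ratios of 1.49 at 5 μM and -1.30 at 2.5 mg/kg.

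Markers of other cells that neighbour the fibroblasts were measured on the same arrays. The median of 10 markers of border macrophages, the macrophages of meninges and perivascular spaces, was 1.18 at 5 μM, 0.91 at 10 μM, -1.76 at 2.5 mg/kg, -0.14 at 3 mg/kg, and -0.27 with scopolamine. Their summed signal was 796 to 2987 in ICR mice, lowest at 2.5 mg/kg and highest at 5 μM, 1998 to 2700 in cortex, and 1410 to 1847 in transgenic mice. The median of 15 markers of pericytes and smooth muscle was 0.88, 0.41, -0.41, -0.19, and -0.44 on the ICR arrays in the same order, and their summed signal was 11540 to 34770 in ICR mice, 16832 to 20550 in cortex, and 13102 to 15470 in transgenic mice. For 15 markers of endothelium, which lines the vessels, the medians were 0.32, 0.13, -0.18, -0.12, and -0.09, and the summed signals were 29685 to 47528, 36543 to 42960, and 30782 to 31857 in the 3 sets. All 3 lists were thus highest at 5 μM in their median. The 10 fibroblast genes were chosen for high values there, so their larger ratios follow from the choice. The medians of macrophages and endothelium were lowest at 2.5 mg/kg, and so were the summed signals of all 3 lists. For pericytes and smooth muscle the medians at 2.5 mg/kg and with scopolamine differed by little, -0.41 against -0.44, and 10 of the 15 markers were lowest at 2.5 mg/kg. On the array of 2.5 mg/kg, 6 of the 10 macrophage markers, 14 of the 15 of pericytes and smooth muscle, and all 15 of endothelium were well above background. Their part in the result was not tested.

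The choroid plexus, the tissue in the ventricles that makes cerebrospinal fluid, has a stroma of fibroblasts of its own, and it lies beside the hippocampus. The median ratio of 16 markers of its epithelium was 2.22 at 5 μM and 2.72 at 10 μM, and it was -4.06 at 2.5 mg/kg, -3.16 at 3 mg/kg, and 2.58 with scopolamine. The summed signal was 312350, 342990, 16127, 18537, and 319520 in that order, with 10 and 11 of the 16 well above background on the streptozotocin arrays and all 16 on the other 3. The choroid plexus markers thus placed scopolamine with Aβ and both doses of streptozotocin together. Of the 10 fibroblast genes, 8 were lower with scopolamine than the mean of the other arrays (9481 of all 19648 genes were higher). All 10 were at least 2-fold higher at 3 than at 2.5 mg/kg of streptozotocin (4.13% of all genes). The exceptions with scopolamine were Dcn and Slc13a4. Dcn was higher by 0.09, which is within the error of the spots. Slc13a4 was higher by 0.51, which turned to -0.41 without the array of 2.5 mg/kg in the reference. Because the choice of the 10 genes used these arrays, nothing is read from this contrast. The part of the choroid plexus in the levels of the 10 genes was not tested.

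In cortex the choroid plexus markers were highest at 17 months, as the transporters were. Their median ratio there was 2.82, with 13 of 16 at least 2-fold higher (2.33% of all genes). Of the 16, 14 were well above background there, against 7, 7, and 10 at 1.5, 4, and 22 months. Ttr, which encodes the thyroid hormone carrier made by this epithelium, had a log2 signal of 15.57 at 17 months and of 5.11 to 6.85 at the other ages. The summed signal was 79674 at 17 months and 18640 to 21619 at the others. On the transgenic arrays the summed signal was 189120 to 210300, with medians of -0.22 for NCSTN, -0.31 for MAPT, and 0.62 for 5×FAD. The part of these markers in the levels of the transporters at 17 months and in 5×FAD mice was not tested.

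**Figure D4:**
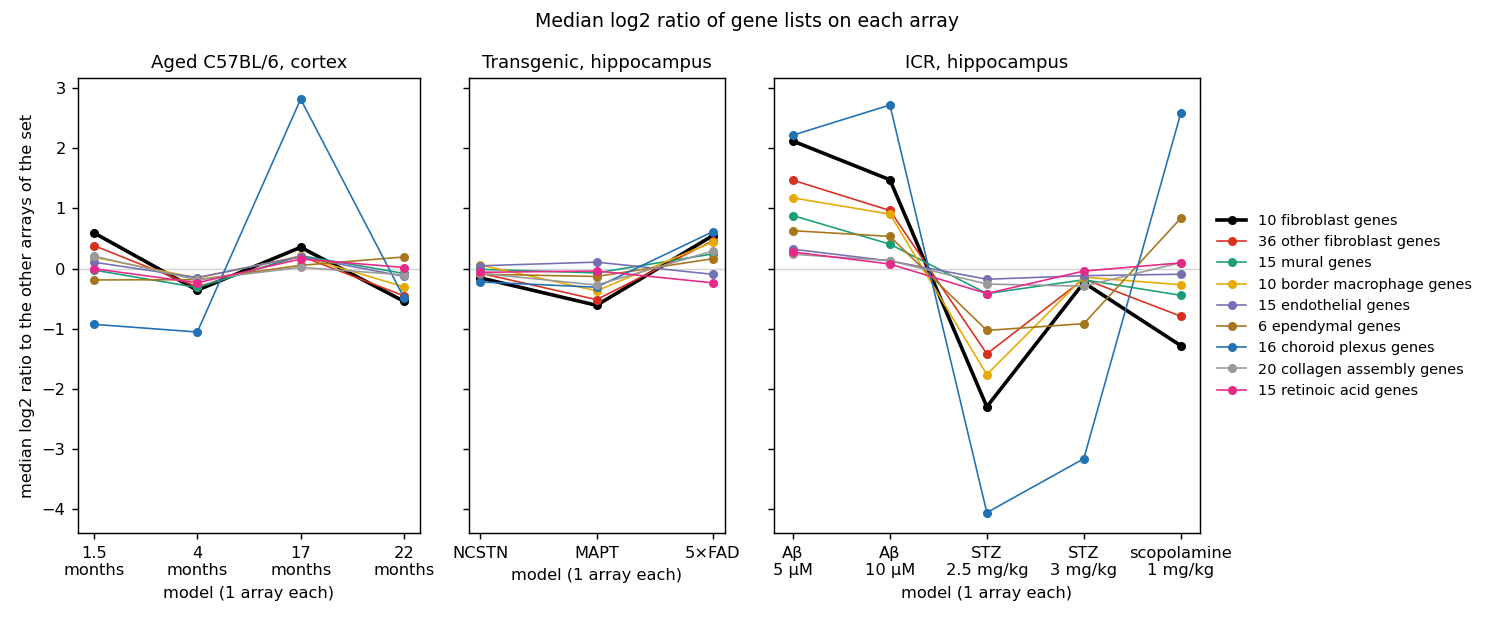
Median log2 ratio of gene lists (y axis) on the 12 arrays (x axis), each relative to the average of the set's remaining arrays, with the 10 fibroblast genes in black. Lines join the values of 1 list and are not a time course. The fibroblast genes and the choroid plexus markers part on the scopolamine array (-1.28 against 2.58) and at 3 mg/kg of streptozotocin (-0.23 against -3.16). The ICR arrays were used to choose the fibroblast genes, so nothing is read from this.

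The genes whose values were most like the mean of the 10 over the 12 arrays, among 14613 genes well above background on at least 6 arrays, were Wnt6 (r of 0.990), Gjb2 (0.990), Fmod (0.989), Itih2 (0.986), Pf4 (0.984), Mpzl2 (0.984), Crabp2 (0.984), Sphk1 (0.981), Anpep (0.980), and Aebp1 (0.979). In all, 108 genes had an r of at least 0.9. Wnt6, a secreted signal, measured 9.35 and 8.62 with Aβ, 4.82 and 7.38 with streptozotocin, and 6.23 with scopolamine, and in cortex 8.14, 7.12, 7.82, and 7.17 at the 4 ages. Gjb2, a gap junction protein, measured 11.38 and 10.84, 8.45 and 9.74, and 9.03 on the ICR arrays. Both therefore had the same order of ICR arrays as Slc6a12. Without the ICR arrays, r over the remaining 7 was 0.85 to 0.99 for these 10 genes. These 7 arrays were among the 12 used to rank the genes, so a high r on them follows in part from the ranking.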

How the data were processed

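RNA pooled from 3 animals of each of 12 models was hybridized to 12 one-colour Agilent Mouse Whole Genome 44K arrays. The authors deposited scanner intensities, not normalized between arrays, and a matrix of processed intensity values that was used only as an alternative. No column belongs to another sample. The processed signal was put on the log2 scale. Between 110 and 234 outlier spots per array were dropped, and repeat spots of a probe were averaged, with a median SD between repeat spots of 0.045 to 0.057 on the log2 scale. Following the methods of the study, a probe had to exceed its local background 1.4-fold, which was required on all 12 arrays, and quantile normalization was applied to the 36520 of 39429 probes that remained. Unversioned accessions were looked up in RefSeq (GRCm38.p6) and gave a symbol to 69.8% of the probes. Values of several probes of a gene were averaged. The number of arrays limits the precision.

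Ratios, counts, and medians were descriptive, with no test. The members and gene lists were chosen with earlier results of these data known. Genes named beside the 10 were the sex-linked genes, the 10 genes most like their mean, and, of each list, the first gene and up to 4 with the largest ratio of at least 2-fold at 5 μM. Some genes that this rule covers are left out of the text. The lists of 7 astrocyte and 6 red blood cell genes are given with the other observations. Alternatives were no filter, a 2-fold filter, scaling to the 75th percentile, normexp background correction with an offset of 50 (on median signals in place of the mean signals first planned), the deposited matrix, the brightest probe, thresholds of 1.5-fold and 3-fold, and each other array left out of the reference. The scripts were tested on simulated data. Python 3.11.15 with numpy 2.4.6, pandas 2.3.3, scipy 1.17.1, and matplotlib 3.10.9, and R 4.3.3 with limma 3.58.1, were used.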

Additional observations from a re-analysis of the deposited data

How the results depend on the processing

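No paired analysis was possible because each model had 1 array. With no filter, a 2-fold filter, or the brightest probe, all medians and counts of the 10 genes stayed within the error of the spots or within 1.5 times of the count. No median changed its direction with any other filter, scaling, background correction, or source of values. Nor did any single ratio that was larger than the error of the spots. In the deposited matrix 8 genes were highest on the 5×FAD array and 2 on the MAPT array, against 6 and 3. A ratio smaller than the error thus did change its sign there.

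With normexp, the medians of the 10 genes, the matrix genes, and the transporters had values of 1.95 and 1.60 (10 genes and matrix genes at 5 μM Aβ), 1.29, 1.17, and 1.37 (10 μM), -1.94, -1.80, and -2.04 (2.5 mg/kg of streptozotocin), and -1.12 and -1.14 (10 genes and transporters with scopolamine). In the deposited matrix they were 1.28 and 1.18 (10 genes and matrix genes at 10 μM), -1.81, -1.77, and -1.99 (2.5 mg/kg), and -1.49, -1.20, and -1.53 (scopolamine), and the medians of all genes there were -0.14, 0.24, and -0.22. The number highest on the NCSTN array was 0 with scaling to the 75th percentile and in the deposited matrix and 2 with normexp, which also left 1 gene at least 2-fold higher at 1.5 months. A 1.5-fold threshold counted 5 at 1.5 months, 4 at 17 months, 1 each for NCSTN and MAPT, and 5 for 5×FAD, and a 3-fold threshold counted 1 at 1.5 months, 0 for 5×FAD, and 3 at 10 μM. The cause of these shifts was not tested. The shares of all genes at 1.5-fold and 3-fold are not given here, so nothing is read from the counts at those thresholds.

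With each other array left out of the reference in turn, the median of the 10 genes ranged over 0.44 to 0.76 (1.5 months), -0.62 to -0.10 (4 months), 0.21 to 0.59 (17 months), -0.83 to -0.40 (22 months), -0.32 to 0.31 (NCSTN), -0.86 to -0.31 (MAPT), 0.32 to 0.86 (5×FAD), 1.59 to 2.63 (5 μM Aβ), 0.91 to 2.09 (10 μM Aβ), -2.69 to -1.87 (2.5 mg/kg of streptozotocin), -0.86 to 0.32 (3 mg/kg of streptozotocin), and -1.89 to -0.73 (scopolamine). The median of the matrix genes ranged over 0.89 to 1.08 (1.5 months), -0.63 to 0.14 (4 months), -0.61 to 0.16 (17 months), -0.96 to -0.42 (22 months), -0.11 to 0.51 (NCSTN), 0.11 to 0.73 (5×FAD), 1.50 to 2.28 (5 μM Aβ), 0.85 to 1.97 (10 μM Aβ), -2.57 to -1.81 (2.5 mg/kg of streptozotocin), -0.89 to 0.34 (3 mg/kg of streptozotocin), and -1.47 to -0.34 (scopolamine). The median of the transporters ranged over 0.14 to 0.66 (1.5 months), -0.79 to -0.33 (4 months), 0.68 to 0.97 (17 months), -0.75 to -0.17 (22 months), -0.82 to 0.16 (NCSTN), -0.98 to -0.16 (MAPT), 1.70 to 2.73 (5 μM Aβ), 0.90 to 2.23 (10 μM Aβ), -3.09 to -2.01 (2.5 mg/kg of streptozotocin), -1.08 to 0.27 (3 mg/kg of streptozotocin), and -2.01 to -0.73 (scopolamine). The count of genes at least 2-fold higher ranged over 0 to 1 (17 months), 0 to 1 (NCSTN), 0 to 1 (MAPT), 4 to 10 (10 μM Aβ), and 0 to 1 (scopolamine). Such shifts follow from the construction, since each array left out changes the reference. The ranges of single ratios that were larger than the error of the spots and changed sign are given by array. For 4 months, the ranges were -0.51 to 0.26 (Col1a1), -0.63 to 0.37 (Col3a1), and -0.37 to 0.14 (Dcn). For 17 months, the ranges were -0.61 to 0.16 (Col1a1), -0.84 to 0.16 (Col3a1), and -0.048 to 0.53 (Col1a2). For 22 months, the range was -0.40 to 0.11 (Dcn). For NCSTN, the ranges were -0.11 to 0.76 (Col1a1), -1.08 to 0.39 (Aldh1a2), -1.03 to 0.082 (Slc13a4), -1.24 to 0.63 (Slc6a12), and -0.61 to 0.23 (Slc6a13). For 5×FAD, the range was -0.070 to 1.29 (Col3a1). For 3 mg/kg of streptozotocin, the ranges were -0.95 to 0.18 (Col1a2), -0.89 to 0.34 (Col3a1), -1.34 to 0.24 (Slc6a12), -0.83 to 0.29 (Slc6a13), and -0.36 to 0.79 (Slc22a6). For scopolamine, the range was -0.41 to 1.14 (Slc13a4).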

Other observations

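Contractile genes of vascular smooth muscle, none of them among the 10 fibroblast genes, had the largest ratios of the mural list on the Aβ arrays. Cnn1, which encodes calponin, had a log2 signal of 10.41 and 10.80 at 5 and 10 μM Aβ, 6.27 and 8.35 at 2.5 and 3 mg/kg of streptozotocin, and 6.64 with scopolamine. Acta2, smooth muscle actin, measured 12.65 and 12.66, 9.79 and 10.95, and 9.90. Cnn1 was higher at 10 than at 5 μM, unlike the 10 fibroblast genes, and Acta2 was nearly equal at both doses. The mural list as a whole had no such order. Of its 15 markers, 7 were highest in ICR mice at 5 μM (16.8% of all genes) and 5 at 10 μM (15.7%). Pdgfrb, a receptor of pericytes, had ratios of 0.39 and 0.41 on the Aβ arrays and -0.21 at 2.5 mg/kg.

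Among endothelial genes, Vwf, the clotting factor carrier of larger vessels, had ratios of 1.76 and 1.52 on the Aβ arrays and -2.06 at 2.5 mg/kg, whereas Cldn5, the tight junction protein of the barrier, had 0.47, 0.41, and 0.06. The 7 astrocyte genes had medians of 0.05 at 5 μM and 0.01 at 2.5 mg/kg and of 0.43 in 5×FAD mice. The 6 red blood cell genes had medians of -0.45 at 5 μM, 0.70 at 10 μM, and 0.15 at 2.5 mg/kg. The 6 ependymal genes had medians of 0.63 at 5 μM, -1.03 at 2.5 mg/kg, -0.91 at 3 mg/kg, and 0.84 with scopolamine.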
